A study of Mus musculus with 12 samples.

Results

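Early erythroid progenitors are the cells that have committed to the red cell lineage but have not yet filled with hemoglobin. They were followed here in the livers of neonatal C57BL/6J mice with phlebotomy-induced anemia (PIA) and of their controls. A cell was counted as a member when its UMIs of Gata1, Klf1, Car1 and Epor added up to at least 3, with at least 2 of the 4 genes detected. The adult globin genes Hba-a1, Hba-a2, Hbb-bs and Hbb-bt had to take less than 5% of its UMIs. Its UMIs of Pf4, Itga2b, Mcpt8 and Cpa3, genes of megakaryocytes, mast cells and basophils, could add up to 2 at most, and Cd79a, Cd3e, Lyz2, C1qa and Stab2, genes of other liver cells, had to be at 0. A UMI, or unique molecular identifier, marks a single captured mRNA molecule. Cells were kept at 1000 to 50000 UMIs and a mitochondrial share up to 20%. Of the 171294 kept cells, 200 were members, 49 from 6 control mice and 151 from 6 anemic mice. The members were thus chosen by the UMIs of the 17 genes of the rule, so the values of these genes are a description below and were not tested.

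Each library came from the whole dissociated liver of 1 pup, and every pup was wild type, with no transgene. Pups were assigned to the groups at random. Anemic pups lost 20 µL of blood per g of body weight by facial vein phlebotomy every other day from postnatal day (P) 2 to P10, which took the hematocrit from 45–60% to 20–24%. Control pups received a needle stick every day without blood loss. Livers were taken on P11, the day after the last draw.

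Red cells are made in the fetal and newborn liver before the bone marrow and, in mice, the spleen take over. The earliest committed progenitors depend on the growth factor receptor Kit and on the transcription factor Gata2. As they mature, Gata1 replaces Gata2, Klf1 switches on the globin, heme and membrane genes, and the cells come to depend on erythropoietin, which the kidney releases when oxygen runs low and which signals through Epor. Car1 encodes carbonic anhydrase 1, an enzyme that interconverts carbon dioxide and bicarbonate and that rises early in this lineage. Hemoglobin accumulates last, so a low globin share sets these cells apart from the erythroblasts that follow them.

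Because Gata1 binds the letters AGATAA and TGATAA, the promoter windows of the marker genes and of St3gal6, a gene that differed between the groups, are shown with these letters, or their reverse complements TTATCT and TTATCA, in capitals. Each window runs 5′ to 3′ on the gene's strand, from 250 bases before the start to 50 bases after it, as RefSeq gives it on GRCm38.p6. Windows were found for 3 of the 4 markers. The window of Gata1 lay at chrX:7967861-7968160 (minus strand), that of Klf1 at chr8:84901732-84902031 (plus strand), that of Epor at chr9:21963527-21963826 (minus strand) and that of St3gal6 at chr16:58524204-58524503 (minus strand).
Gata1: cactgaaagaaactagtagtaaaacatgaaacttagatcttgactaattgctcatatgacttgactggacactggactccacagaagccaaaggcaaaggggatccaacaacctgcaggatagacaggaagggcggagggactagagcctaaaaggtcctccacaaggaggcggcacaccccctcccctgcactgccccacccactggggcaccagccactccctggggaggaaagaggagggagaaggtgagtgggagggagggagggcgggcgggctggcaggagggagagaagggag
Klf1: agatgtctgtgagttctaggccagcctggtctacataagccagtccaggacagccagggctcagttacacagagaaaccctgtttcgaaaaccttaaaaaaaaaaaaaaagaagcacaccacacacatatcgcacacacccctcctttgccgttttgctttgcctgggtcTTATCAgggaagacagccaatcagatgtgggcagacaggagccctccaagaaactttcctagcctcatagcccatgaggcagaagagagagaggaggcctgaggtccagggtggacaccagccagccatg
Epor: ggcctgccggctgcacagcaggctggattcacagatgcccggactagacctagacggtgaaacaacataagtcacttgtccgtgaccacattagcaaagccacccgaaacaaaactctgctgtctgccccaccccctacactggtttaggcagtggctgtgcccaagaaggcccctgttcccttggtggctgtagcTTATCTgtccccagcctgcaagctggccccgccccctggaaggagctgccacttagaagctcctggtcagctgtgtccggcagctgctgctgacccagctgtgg
St3gal6: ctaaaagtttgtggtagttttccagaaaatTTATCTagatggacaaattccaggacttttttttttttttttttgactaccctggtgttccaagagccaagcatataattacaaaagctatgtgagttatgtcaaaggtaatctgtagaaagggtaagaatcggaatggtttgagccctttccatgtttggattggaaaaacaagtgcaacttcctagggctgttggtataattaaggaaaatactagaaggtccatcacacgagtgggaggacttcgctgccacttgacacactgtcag
Klf1, Epor and St3gal6 held 1 match each and Gata1 held 0. A second window of St3gal6, at chr16:58523377-58523676, held 0 matches. Of all 32851 windows, 6115 (18.6%) held at least 1, so such a match is a description of the letters and not of binding.

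The 12 libraries held 46252146 to 74545930 UMIs, and 11750 to 17222 cells per mouse passed the filters on UMIs and mitochondrial share, with a median of 2226 to 3316 UMIs per cell. Members were deeper than the average cell. The mouse median of UMIs per member was 10770.3 ± 1924 (SD, n = 6) in control and 12804 ± 1757 (n = 6) in anemic mice (p = 0.0931, exact two-sided Mann-Whitney test), and their mitochondrial share was 4.03% and 4.07% (p = 0.937, exact Mann-Whitney test). Of the 202419 barcode sequences in the files, 5031 (2.49%) occurred in more than 1 library. Among members, 8 of 200 (4%) carried such a sequence, and no members shared one with each other. By Xist and Y-linked UMIs, 4 control and 2 anemic mice were female, an uneven split. All libraries carry the same batch label.

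The number of members rested on each step of the rule. Of the kept cells, 677 had the marker sum and the detected markers the rule asks for, and 355 of these had less than 5% globin. The other-lineage genes then removed 155 cells, 28 from control and 127 from anemic mice, and 89 of the 155 were removed by a single UMI of such a gene. Lyz2, a gene of macrophages, monocytes and neutrophils, was present in 69 of them, Cd79a of B cells in 47, Stab2 of liver sinusoidal endothelium in 42, C1qa of macrophages in 32 and Cd3e of T cells in 9. Just inside the marker threshold, 18 members had a sum of 3, and 18 cells with a sum of 2 lay just outside it. Just inside the globin threshold, 23 members had 4% to 5% globin, and 17 cells with 5% to 6% lay just outside it. Another 36 cells reached a sum of 3 with a single marker detected. The megakaryocyte and mast cell genes added up to 2 in 1 member, and to 3 in no cell that passed the other steps.

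Car1 dominated the choice. It gave 4258 of the 5112 marker UMIs of the members (83.3%) and was detected in 170 of 200 (85%). Gata1 was detected in 159 (79.5%), Klf1 in 140 (70%) and Epor in 89 (44.5%). Only 39 members carried all 4 markers, 80 carried 3 and 81 carried 2. Levels are given as CPM, counts per 1000000, that is the UMIs of a gene for every 1000000 UMIs of the members of a mouse. For Car1 the lowest, median and highest mouse were at 885, 1698 and 2881 CPM among controls and at 1034, 1665 and 3583 CPM among anemic mice. For Epor these were 12.9, 75.1 and 131 CPM and 27.5, 45.9 and 75.3 CPM. Gata1 stood at 122, 198 and 283 CPM and at 120, 162 and 206 CPM. Klf1 stood at 77.1, 155 and 189 CPM and at 99.0, 124 and 159 CPM. For each of the 4 markers the groups overlapped.

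The label was checked on 15 erythroid and progenitor genes that the rule did not use. They were compared, without a test, with 146834 other liver cells (kept cells under 5% globin outside the class) and with 234 hemoglobinized erythroblasts, cells that met the marker and other-lineage rules with 5% or more globin. Of the 15 genes, 14 had a higher mean level over mice in members than in the other cells, and 10 were higher in every mouse's members than in any mouse's other cells. Rhag, the Rh-associated glycoprotein of the membrane, averaged 291 CPM in members and 1.38 CPM in other cells, and Hemgn, a nuclear protein of blood progenitors, 288 and 1.64 CPM. Gfi1b, a transcriptional repressor of the erythroid and megakaryocyte lineages, averaged 65.9 and 0.707 CPM. Kit, Gata2, Myb, Nfe2 and Aqp1 did not separate the classes in every mouse. Kit averaged 50.6 CPM in members and 41.3 CPM in other cells, and Aqp1, a water channel that endothelium also carries, was lower in members, at 137 and 193 CPM. By these genes the members were erythroid, while Kit and Gata2 of the earliest stage averaged close to their level in the rest of the liver.

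**Figure D1:**
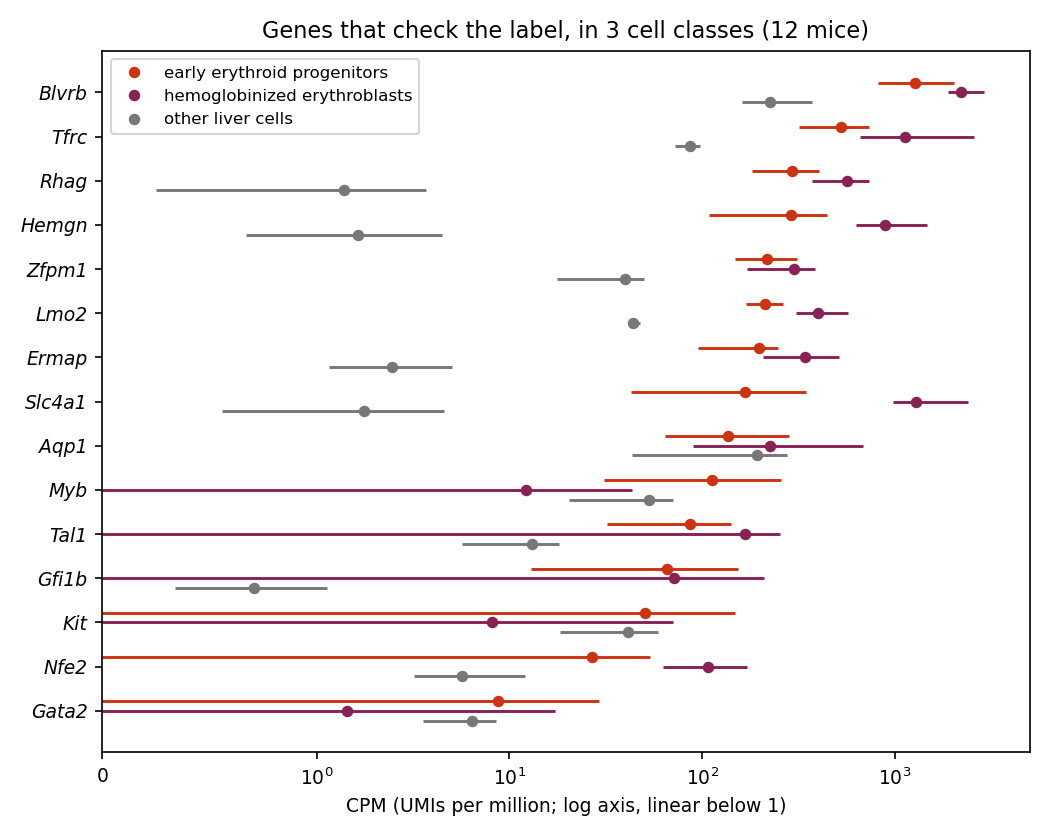
Level (CPM, log axis that is linear below 1) of the 15 erythroid and progenitor genes that the rule did not use, in early erythroid progenitors, hemoglobinized erythroblasts and other liver cells. Points are means over 12 mice and lines run from the lowest to the highest mouse. In progenitors, Rhag and Hemgn lie far above the other cells in every mouse, and Kit, Gata2, Myb, Nfe2 and Aqp1 do not.

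Against the hemoglobinized erythroblasts, 12 of the 15 genes were lower in members. Slc4a1, the anion exchanger band 3, averaged 167 CPM in members and 1285 CPM in erythroblasts. Tfrc, the transferrin receptor that brings iron into the cell, averaged 522 and 1128 CPM. The exceptions were the genes of the early stage. Myb, a transcription factor of proliferating progenitors, averaged 112 CPM in members and 12.1 CPM in erythroblasts, Kit 50.6 and 8.15 CPM, and Gata2 8.71 and 1.44 CPM.

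Among themselves the members spanned a maturation range. Kit was detected in 58 members (29%) and Slc4a1 in 86 (43%). Kit without Slc4a1 was seen in 54, Slc4a1 without Kit in 82, both in 4 and neither in 60. Tfrc was present in 184 (92%), and Gata2 in 20 (10%). UMIs per member ran from 1089 to 26711, so the absence of a gene in 1 cell can reflect depth. Of 18 members with more than 20000 UMIs, 2 were from control and 16 from anemic mice. No doublet caller was run, and the part of pairs of cells caught together in these was not tested.

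The range was ordered by globin share, with cells pooled over mice. The intervals cover counting error only. The lowest bin, under 0.25% globin, held 91 members, and the bins up to 1%, 2.5% and 5% held 22, 36 and 51. Kit was at 93.4 CPM in the lowest bin (exact 95% Poisson interval 77.1 to 112) and at 0 in the highest bin of members (interval up to 6.68). Myb went from 198 to 9.05 CPM, and Cdk6, a cell cycle kinase of immature blood cells, from 653 to 50.7 CPM. In the opposite direction, Slc4a1 went from 2.44 to 570 CPM, and Alas2, the erythroid enzyme of the first step of heme synthesis, from 4.87 to 297 CPM. Tfrc went from 296 to 945 CPM and Mki67, a protein of dividing cells, from 325 to 1079 CPM. Car1 was highest in the lowest bin, at 2299 CPM, and lay between 1069 and 1271 CPM in the others. Median UMIs per cell were 14087 in the lowest bin and 12146.5 in the third. Both groups gave cells to every bin, with 24, 9, 8 and 8 members from control mice. The median globin share of a mouse's members was 0.054% to 2.41% in controls and 0.119% to 2.70% in anemic mice. In the other liver cells, which should hold globin only as free RNA, the mean share was 0.065% to 0.145% in controls and 0.141% to 0.314% in anemic mice, so the lowest bin lies near this level.

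**Figure D2:**
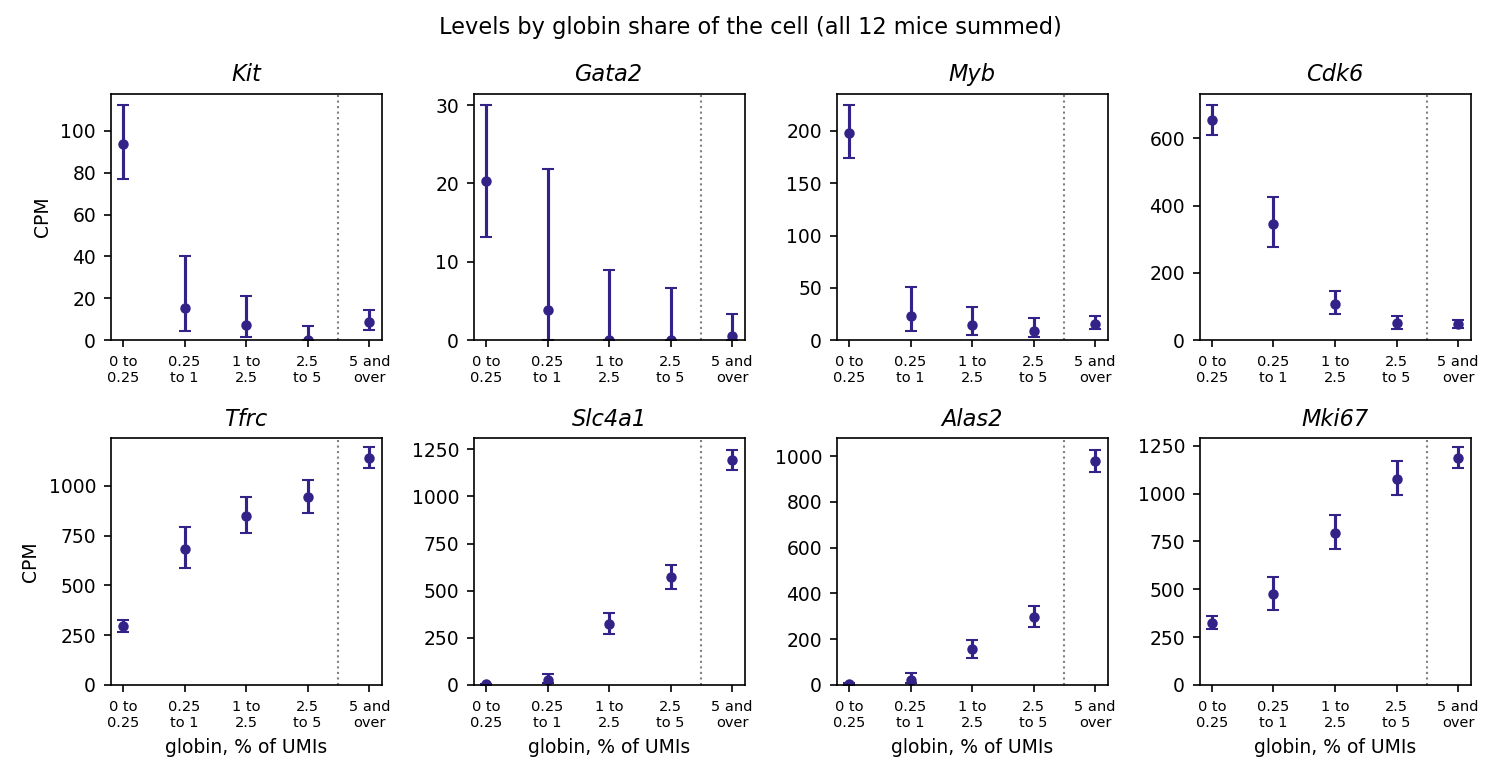
Level (CPM) of stage genes in cells pooled over mice and binned by globin share (percent of UMIs), from members under 0.25% to hemoglobinized erythroblasts at 5% or more. Points are pooled levels, bars are exact 95% Poisson intervals, which cover counting error only, and the dotted line marks the 5% limit. Kit, Gata2, Myb and Cdk6 are highest in the lowest bin, and Tfrc, Slc4a1, Alas2 and Mki67 in the highest.

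Early erythroid progenitors took a larger share of the liver cells of anemic mice. Per 10000 kept cells, the lowest, median and highest control mouse had 3.75, 5.77 and 8.01 members, and the anemic mice had 12.2, 16.6 and 21.9. Every anemic mouse lay above every control. The mean was 6.05 ± 1.58 (SD, n = 6) in control and 16.9 ± 4.33 (n = 6) in anemic mice, a difference of 10.9 and a ratio of 2.80. The exact two-sided Mann-Whitney test gave p = 0.00216, the smallest that 6 mice against 6 can give. In cells, the control mice gave 5 to 11 members each and the anemic mice 19 to 36. A share depends on the other cells of the same library, so more progenitors and fewer other cells cannot be told apart from it. It also moved with the other-lineage genes of the rule, although not in direction. Without them the means were 9.41 and 30.8 per 10000. With every cell thinned to 2000 UMIs before the rule was applied, they were 4.04 and 11.4 per 10000.

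**Figure D3:**
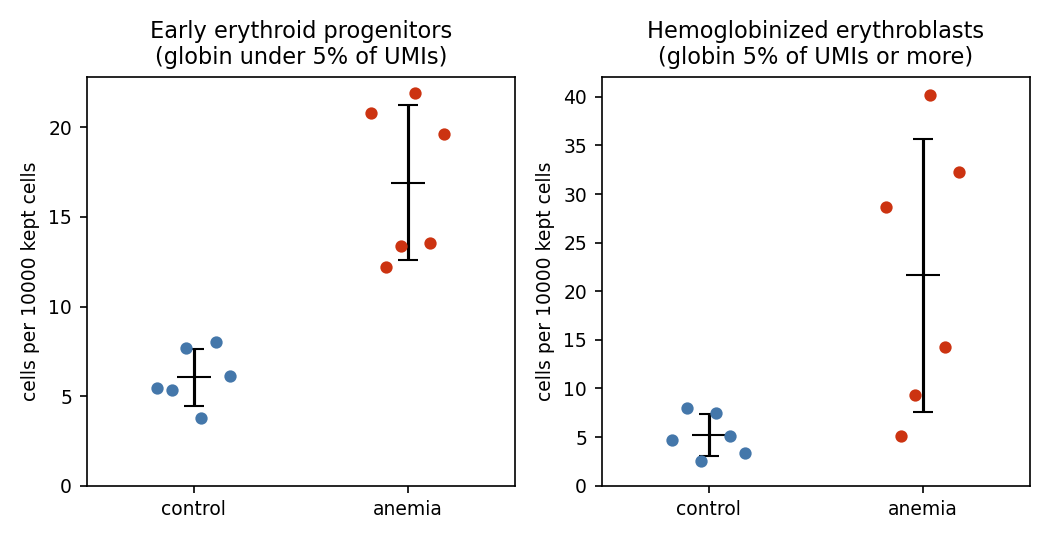
Early erythroid progenitors and hemoglobinized erythroblasts per 10000 kept cells in each of 6 control and 6 anemic mice. Points are mice, with the mean and SD of each group. Each anemic mouse has more progenitors per 10000 (12.2 to 21.9) than any control (3.75 to 8.01).

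The hemoglobinized erythroblasts that follow them were also more frequent. Their number per 10000 kept cells was 5.21 ± 2.19 (n = 6) in control and 21.6 ± 14.0 (n = 6) in anemic mice (p = 0.00866, exact two-sided Mann-Whitney test), and anemic mice ranged from 5.15 to 40.2. The ratio of progenitors to hemoglobinized erythroblasts was 1.45 ± 0.91 in control and 1.11 ± 0.70 in anemic mice (p = 0.589, exact Mann-Whitney test), and the groups overlapped. Control mice gave 3 to 12 hemoglobinized erythroblasts each and anemic mice 8 to 66, so control values of this class rest on few cells.

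The make-up of the progenitors was compared after each cell had been thinned to 1000 UMIs, because detection depends on depth. A Kit UMI then remained in 3.75% ± 4.01 of the members of a control mouse and 4.81% ± 2.17 of those of an anemic mouse (n = 6 each, p = 0.370, exact two-sided Mann-Whitney test). Before thinning the shares were 23.8% and 30.9%. In B cells, which should lack Kit, the thinned share was 0.41% and 0.40%. An Mki67 or Top2a UMI, a sign of the cell cycle, remained in 60.6% ± 11.8 and 63.1% ± 8.09 of members (p = 0.818, exact Mann-Whitney test), against 88.3% and 91.2% before thinning. In hemoglobinized erythroblasts this share was 88.1% and 83.1%, and in B cells 11.9% and 8.75%. With 5 to 11 members in a control mouse, each share rests on few cells. No difference between the groups was detectable for either.

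To compare gene levels in the members, their UMIs were summed per mouse and compared between 6 and 6 mice with edgeR. The members spanned a maturation range, so a shift in their stages and a change within cells cannot be told apart in these sums. The sums held 64844 to 123145 UMIs in control and 202093 to 544828 in anemic mice. Tested genes averaged at least 5 UMIs per mouse. Because the anemic sums were deeper, a gene with few control UMIs could reach this filter through the anemic mice alone. Of 5342 genes tested, 3 passed a Benjamini-Hochberg (BH) adjusted p of 0.05 (0.0562%), all of them higher in anemia, and 0 were lower. At an unadjusted p under 0.05 there were 285 (5.34%), 162 higher (3.03%) and 123 lower (2.3%). For 24 genes (0.449%), 14 higher (0.262%) and 10 lower (0.187%), the anemic and control mice did not overlap.

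Fabp5, a fatty acid binding protein of the cytosol (chromosome 3, 10012548 to 10016607, plus strand, GRCm38), rose in anemia. Its lowest, median and highest level was 200.5, 277 and 337 CPM in control mice and 441, 568 and 861 CPM in anemic mice. The groups did not overlap, and the log2 fold change was 1.08 (SE 0.18, adjusted p = 0.00287). Fabp5 rose elsewhere in the same livers as well, by a log2 fold change of 2.30 in hemoglobinized erythroblasts (edgeR, adjusted p = 7.02e-09) and by 1.32 in the other liver cells (edgeR, adjusted p = 0.0117). The other cells held more of it than the members, with a mean of 569 CPM in controls and 1349 CPM in anemic mice. These cells were summed over cell types, so a change in their make-up and a change in their expression cannot be told apart in these values. The part of free RNA from them in the members' values was not tested. The call was lost by limma voom with quality weights (1.07, adjusted p = 0.0769) and with hepatocyte RNA as a covariate (0.99, edgeR adjusted p = 0.198), with log2 fold changes close to that of the fit without them.

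St3gal6, a sialyltransferase that caps glycans of the cell surface (chromosome 16, 58468125 to 58524243, minus strand), rose by a log2 fold change of 1.45 (SE 0.30, adjusted p = 0.0491). Control mice were at 30.8, 40.6 and 87.1 CPM and anemic mice at 74.5, 141 and 169 CPM (lowest, median, highest), and 1 control reached into the anemic range. Its log2 fold change was 0.07 in hemoglobinized erythroblasts and -0.01 in other liver cells. The change in members was not shown to differ from either, with an adjusted p of 0.325 for the difference from hemoglobinized erythroblasts and 0.141 for that from other cells (edgeR). Without anemic mouse 3, St3gal6 passed the test of the difference from other cells. With Y-linked expression as a covariate, which stands for the uneven sexes, its log2 fold change was 1.399 and its adjusted p 0.178. Leaving out any 1 of 10 of the 12 mice also ended the call (adjusted p up to 0.279), whereas Fabp5 kept its call whichever mouse was left out.

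Gm10076, a gene model that GENCODE lists as a long intergenic noncoding RNA (chromosome 14, 105681828 to 105682211, plus strand), rose by a log2 fold change of 0.96 (SE 0.18, adjusted p = 0.0179). Control mice were at 150, 203 and 271 CPM and anemic mice at 309, 412 and 496 CPM, without overlap. Of its 31-base words, 84.2% also occur in other genes and 82.2% in the ribosomal protein gene Rpl41, so its reads are uncertain. The adjusted p was 0.218 without control mouse 6, and 5 of the 12 mice ended the call when left out. The rule for named genes leaves out St3gal6 because its groups overlap and Gm10076 because it is a gene model without a symbol of its own, so both were named after their values were seen.

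**Figure D4:**
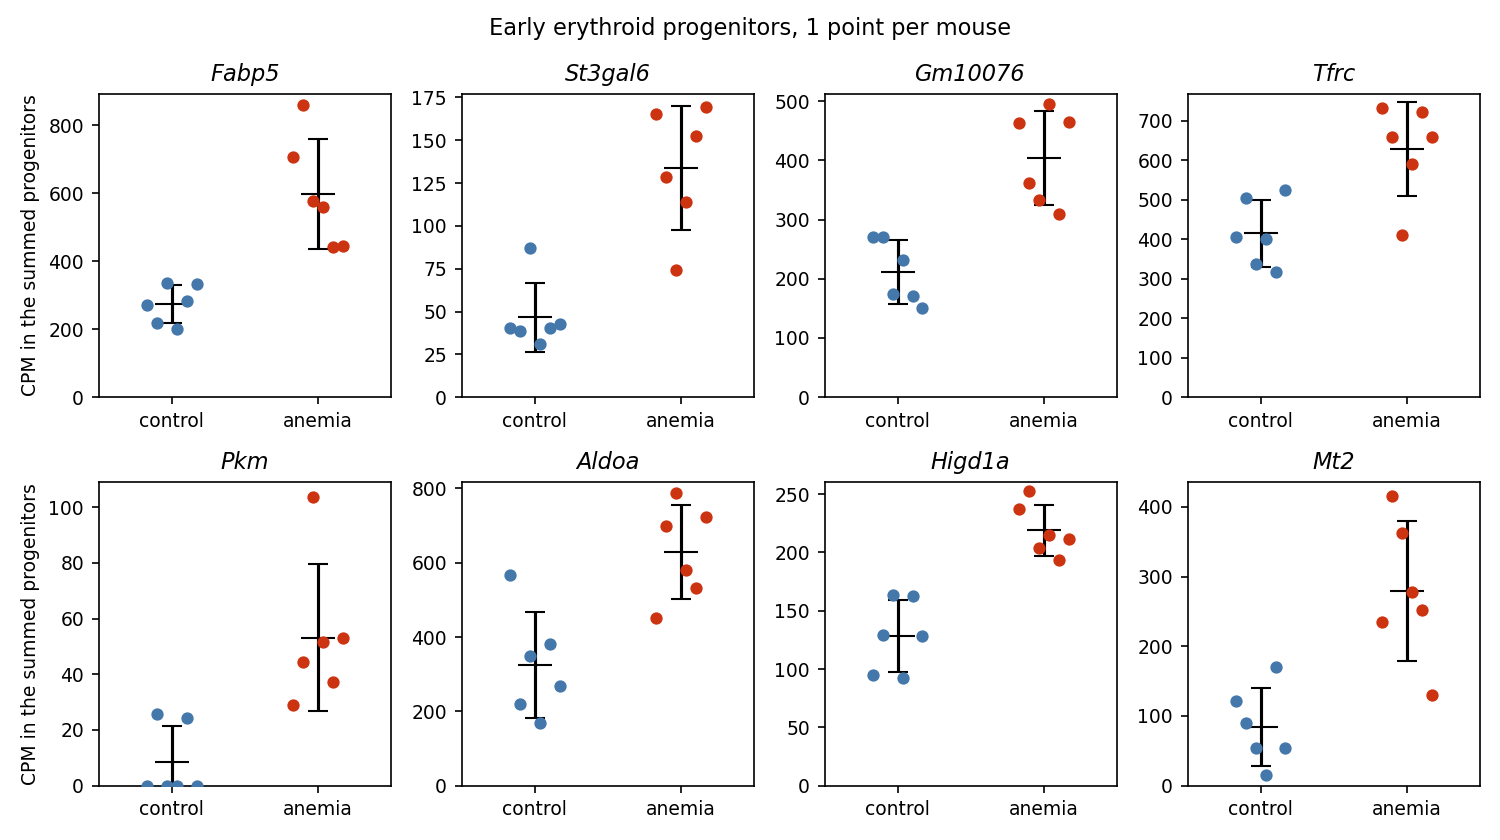
Level (CPM, linear axes from 0) in early erythroid progenitors of each of 6 control and 6 anemic mice for Fabp5, St3gal6 and Gm10076, which passed the test, and for Tfrc, Pkm, Aldoa, Higd1a and Mt2, which did not. Points are mice and bars are the mean and SD of 6 mice. Fabp5 lies between 200.5 and 337 CPM in controls and between 441 and 861 CPM in anemic mice.

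The pathways of the lineage were described from 30 gene lists, of which 25 had a tested gene, with 331 genes in all. No list held a called gene. Over all 5342 genes the median log2 fold change was 0.00, with 2702 genes above 0 and 2640 below. The lists are given with the same values, for reading against this background.

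Among 22 erythroid transcription factors, 7 were above 0 and 15 below, with a median log2 fold change of -0.06. An unadjusted p under 0.05 was seen for 4 of them, 3 lower and 1 higher, against 5.34% of all genes. Nfia, a factor of the erythroid fate choice, was at 400, 482 and 771 CPM in controls and 288, 365 and 470 CPM in anemic mice (lowest, median, highest; log2 fold change -0.48, SE 0.16, edgeR adjusted p = 0.688). Mxi1, an antagonist of Myc, was at 122, 234 and 335 CPM and 74.2, 148 and 194 CPM (-0.60, SE 0.23, adjusted p = 0.866). Gfi1b gave a log2 fold change of -0.93 (adjusted p = 0.886). In each the groups overlapped. Among 7 tested genes of stem and multipotent cells, 1 was above 0 and 6 below, with a median of -0.20. Runx1, a factor of early blood formation, had a log2 fold change of -0.63 and Cd48, a surface protein of blood progenitors, 1.12 (adjusted p = 0.919 for both). Kit had a log2 fold change of -0.07 (SE 0.52) and Myb of -0.08 (SE 0.50), with signs that turned under several settings. At this depth, changes of Kit and Myb of about their standard errors were not detectable. Gata2 and Cd34 were too low to test, with 3 and 23 UMIs of Gata2 and 0 and 4 of Cd34 in all control and all anemic members.

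Of the genes downstream of erythropoietin and Kit, 12 could be tested, and 7 were above 0 and 5 below (median log2 fold change 0.23). Egr1, an immediate early gene, was at 10.7, 18.9 and 46.3 CPM in controls and 24.7, 44.6 and 51.4 CPM in anemic mice (0.87, SE 0.42, edgeR adjusted p = 0.919). Pik3r1, a regulatory subunit of phosphoinositide 3-kinase, gave a log2 fold change of -0.67 (SE 0.31, adjusted p = 0.919), and of -0.22 without control mouse 2. The best known targets of the erythropoietin receptor lay under the limit of the test. Cish, a feedback inhibitor of the receptor, had 3 UMIs in control and 33 in anemic members, that is 5.72 and 17.1 CPM over the group. Bcl2l1, which protects erythroblasts from cell death, had 3 and 27 UMIs (5.72 and 14.0 CPM), and Socs3 had 1 and 6. Erfe, the hormone by which erythroblasts lower hepcidin, had 0 UMIs in control members, which allows up to 5.72 CPM (3 counts over the group), and 14 UMIs in anemic members, or 7.26 CPM. No change was tested for these genes.

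Anemia in mice can call on a stress program that uses BMP signals and glucocorticoids. Of the BMP and TGF-beta list only Smad4 and Tgfbr1 could be tested, with log2 fold changes of -0.23 and 0.20 (edgeR adjusted p = 0.991 for both). Of 8 genes of the glucocorticoid response, 6 were above 0 and 2 below (median 0.36). Dusp1, a phosphatase of MAP kinases, was at 40.6, 65.1 and 107 CPM in controls and 90.7, 114 and 162 CPM in anemic mice (0.80, SE 0.26, edgeR adjusted p = 0.688). Nr3c1, the glucocorticoid receptor, gave a log2 fold change of -0.55 (SE 0.33, adjusted p = 0.926).

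Hemoglobin production needs heme and iron. Of 18 genes of heme synthesis and transport, 10 were above 0 and 8 below (median 0.03). An unadjusted p under 0.05 was seen for 5 of them, 4 higher, against 5.34% of all genes. Alas2 was at 8.12, 61.8 and 120 CPM in controls and 55.0, 105 and 148 CPM in anemic mice (0.73, SE 0.35, edgeR adjusted p = 0.919), and the groups overlapped. Glrx5, a protein of iron-sulfur cluster assembly, had a log2 fold change of 0.35 and Uros, an enzyme of the middle of the pathway, of -0.59 (adjusted p = 0.919 for both). Fech, the enzyme that inserts iron into the ring, had a log2 fold change of 0.13.

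Of 15 genes of iron uptake, storage and sensing, 7 were above 0 and 8 below (median -0.03). Tfrc was the gene of this list with the smallest p. Its level was 317, 403 and 525 CPM in controls and 411, 659 and 733 CPM in anemic mice (log2 fold change 0.59, SE 0.16, edgeR adjusted p = 0.299). The groups overlapped, and Tfrc passed the test without anemic mouse 3 (0.68, adjusted p = 0.0407). In members under 2.5% globin its log2 fold change was 0.43 (edgeR adjusted p = 0.852). For Exoc6, a protein of transferrin receptor recycling, it was 0.35 (adjusted p = 0.957).

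Of 27 genes of the red cell membrane and blood groups, 15 were above 0 and 12 below (median 0.01), and 0 had an unadjusted p under 0.05. Slc4a1 was at 42.9, 86.5 and 250 CPM in controls and 128, 187 and 346 CPM in anemic mice (0.86, SE 0.46, edgeR adjusted p = 0.926), and the groups overlapped. Tmod3, which caps actin filaments, gave a log2 fold change of -0.55 (adjusted p = 0.919). In members under 2.5% globin the log2 fold change of Alas2 was -0.05. The embryonic globins Hbb-bh1 and Hbb-y had 0 UMIs in the members of both groups, which allows up to 5.72 CPM in controls and 1.56 CPM in anemic members.

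By their median log2 fold change the cell cycle lists lay near the background. Of 41 S phase genes 23 were above 0 and 18 below (median 0.02), and of 45 genes of G2 and M phase 26 were above 0 and 19 below (median 0.06). An unadjusted p under 0.05 was seen for 2 of the S phase genes, both higher. It was seen for 5 of the G2 and M phase genes, 4 of them higher, against 5.34% of all genes. Ect2, needed for cytokinesis, was at 0, 25.1 and 42.9 CPM in controls and 24.7, 60.2 and 111 CPM in anemic mice (1.68, SE 0.49, edgeR adjusted p = 0.547). Cenpf, a kinetochore protein, gave a log2 fold change of 1.03 (SE 0.33, adjusted p = 0.688), Mcm4 of the replicative helicase 0.47 and the helicase Blm 0.55 (adjusted p = 0.919 for both). Mki67 gave a log2 fold change of 0.04 (SE 0.19, adjusted p = 0.996). Of 11 cyclins and inhibitors, 5 were above 0 and 6 below. Rb1, a brake on S phase entry, had a log2 fold change of -0.59 and Cdkn1b, a cyclin kinase inhibitor, of 0.95 (adjusted p = 0.919 and 0.926). Cdkn1c had 3 UMIs in each group.

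Of 13 glycolytic enzymes tested, 12 had a log2 fold change above 0 and 1, Pklr, below it. The list's median was 0.54, and 10 genes had an unadjusted p under 0.05, all higher, while 0 passed the adjusted test. Over all tested genes, 3.03% were higher at that unadjusted threshold. Aldoa, an aldolase, was at 170, 308 and 568 CPM in controls and 452, 640 and 787 CPM in anemic mice (0.91, SE 0.22, edgeR adjusted p = 0.297). Pkm, a pyruvate kinase, was at 0, 0 and 25.8 CPM and 29.0, 48.0 and 104 CPM (2.41, SE 0.60, adjusted p = 0.278), from 5 UMIs in all control and 103 in all anemic members. Pkm did not overlap between the groups and Aldoa did. With so few control UMIs, Pkm reached the filter of the test through the anemic mice alone, so its lack of overlap is a description only. Aldoa passed the test without control mouse 1 (1.11, edgeR adjusted p = 0.0111). The summed level of the list was 3378 to 4585 CPM in controls and 4536 to 6293 CPM in anemic mice.

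The median log2 fold change of the same list was 1.02 in hemoglobinized erythroblasts and 0.94 in the other liver cells, where the summed level was 3563 to 4660 CPM in controls and 5400 to 10378 CPM in anemic mice. Pkm averaged 412 and 700 CPM in the other cells, above its level in members. The part of RNA from other cells in the members' glycolytic values was not tested.

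Of the 30 lists, 2 had a summed level that did not overlap between the groups, both higher in anemia. Hypoxia targets were 1 of them, at 798 to 1096 CPM in controls and 1125 to 1541 CPM in anemic mice. The sum covers all 25 genes of the list, among them Mif, which reached 577 CPM in its highest control. Of 11 tested, 10 were above 0 and 1 below, with a median of 0.42. An unadjusted p under 0.05 was seen for 3, all higher, against 3.03% of all genes. Higd1a, a mitochondrial protein that responds to hypoxia, was at 92.5, 129 and 163 CPM in controls and 194, 213 and 252 CPM in anemic mice, without overlap (0.71, SE 0.20, edgeR adjusted p = 0.480). Pdk1, a kinase that inhibits pyruvate dehydrogenase, was at 0, 14.2 and 21.8 CPM and 19.8, 32.4 and 62.4 CPM (1.46, SE 0.52, adjusted p = 0.718). The list's summed level did not overlap in the other liver cells either, at 1653 to 1745 CPM in controls and 1962 to 2580 CPM in anemic mice, with a median log2 fold change of 0.47. In hemoglobinized erythroblasts, where 4 of its genes were tested, the median was 0.75. Higd1a and Pdk1 both rose in the other cells, each by a log2 fold change of 0.58 (edgeR adjusted p = 0.0185 and 0.00689).

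The other list without overlap was that of erythroid genes the study names, which the study chose on these samples, so its direction is not independent evidence. Of its 6 genes, 3 were tested, and the list's summed level was 401 to 987 CPM in controls and 1058 to 1800 CPM in anemic mice. It holds the metallothioneins Mt1 and Mt2, which bind zinc and copper. Mt2 was at 15.4, 72.4 and 171 CPM in controls and 130.5, 264 and 416 CPM in anemic mice (1.60, SE 0.36, edgeR adjusted p = 0.297), and Mt1 at 168, 318 and 649 CPM and 420, 666 and 1256 CPM (1.12, SE 0.37, adjusted p = 0.866). In both the groups overlapped. Mt2 passed the test by DESeq2 (adjusted p = 0.00902) and with a marker sum of at least 5 (edgeR adjusted p = 0.0346). It also passed without control mouse 5 or anemic mouse 6 (edgeR adjusted p = 0.0449 and 0.00521). Its log2 fold change was 1.24 with hepatocyte RNA as a covariate (edgeR adjusted p = 0.961) and 0.68 in mice with at least 10 members. In other liver cells both rose, with log2 fold changes of 2.13 for Mt2 and 1.54 for Mt1 (edgeR adjusted p = 0.00171 for both). They also rose in hemoglobinized erythroblasts. Mt2 had 0 UMIs there in control mice, which allows up to 12.5 CPM (3 counts over the group), and averaged 106 CPM in anemic mice (edgeR adjusted p = 1.84e-06). Mt1 averaged 12.2 and 218 CPM in them, from 5 and 278 UMIs (adjusted p = 2.73e-09). The difference between members and erythroblasts did not pass for Mt2 or Mt1 (adjusted p = 0.152 and 0.0651). It passed for both without anemic mouse 4, and for Mt1 without anemic mouse 3. Over all 23 tested antioxidant and metallothionein genes, 13 were above 0 and 10 below (median 0.07).

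**Figure D5:**
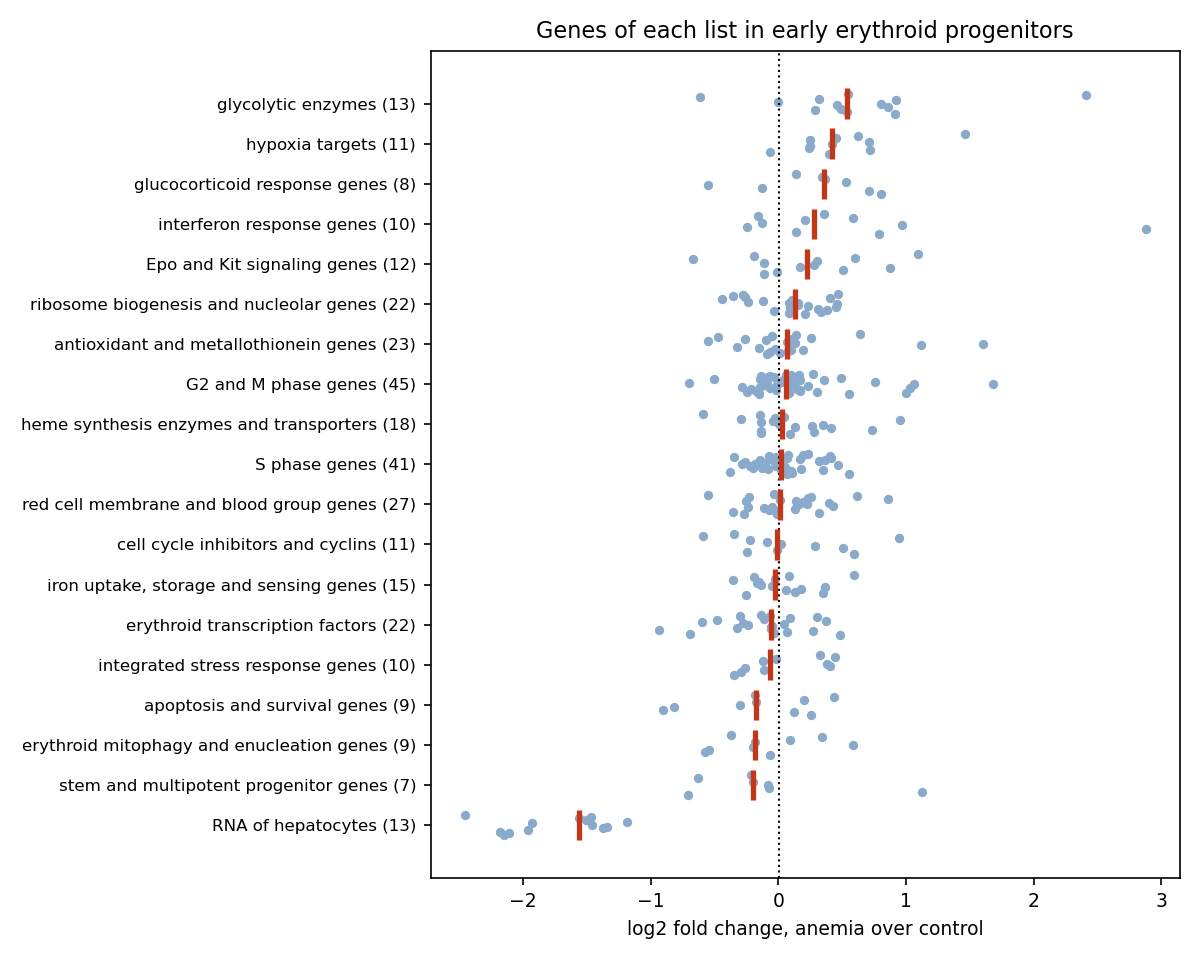
Log2 fold change (anemia over control) in early erythroid progenitors of the tested genes of 19 lists, with the number tested in brackets. Points are genes, red bars are list medians and the dotted line marks 0. The median of glycolytic enzymes is 0.54, that of hypoxia targets 0.42 and that of hepatocyte RNA -1.56, against 0.00 over all genes.

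No gene of the growth and stress lists passed the adjusted test. Of 22 genes of ribosome biogenesis and the nucleolus, 15 were above 0 and 7 below (median 0.13), and Mybbp1a and Wdr43, both of the nucleolus, had log2 fold changes of 0.45 and 0.46 (edgeR adjusted p = 0.919 for both). Of 10 genes of the integrated stress response, 4 were above 0 and 6 below (median -0.06), with Ppp1r15a, a subunit that ends the response, at 0.38 and Shmt2, a mitochondrial enzyme of folate metabolism, at 0.45 (adjusted p = 0.926 for both). Of 9 apoptosis and survival genes, 4 were above 0 and 5 below (median -0.18), and the pro-apoptotic Bid and Bcl2l11 had log2 fold changes of -0.81 and -0.90 (adjusted p = 0.919 and 0.926). That of Bcl2l11 was -0.33 without control mouse 2. Of 9 genes of mitophagy and enucleation, 3 were above 0 and 6 below (median -0.18), with Gabarapl1 of autophagosomes at -0.54 (adjusted p = 0.926). Of 10 interferon response genes, 7 were above 0 and 3 below (median 0.28). Isg20, an exonuclease, gave a log2 fold change of 0.58 (adjusted p = 0.919). Ifi47, an interferon-induced GTPase, was at 0, 5.36 and 16.2 CPM in controls and 7.05, 22.5 and 322 CPM in anemic mice (2.88, SE 1.78, adjusted p = 0.940), so that 1 anemic mouse set its value. It had 4 UMIs in control and 98 in anemic members, so it reached the filter of the test through the anemic mice alone.

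RNA of other liver cells was read in the same sums. All 13 tested hepatocyte genes had a log2 fold change below 0, with a median of -1.56, and 10 had an unadjusted p under 0.05. Over all tested genes, 2.3% were lower at that threshold. The summed level of the hepatocyte list was 1604 to 12781 CPM in controls and 418 to 1669 CPM in anemic mice, so that 5 of 6 anemic mice lay below every control. In hemoglobinized erythroblasts the list's median was -0.42 and in the other liver cells 0.06. Control mouse 1 was the highest, with 1 member that held 170 UMIs of Alb. Rbp4, a retinol carrier of hepatocytes, was at 76.2, 117 and 541 CPM in controls and 12.9, 46.6 and 75.3 CPM in anemic mice (-1.93, SE 0.55, edgeR adjusted p = 0.688, called by DESeq2), and Ahsg, a plasma protein, gave a log2 fold change of -2.15 (adjusted p = 0.688). With 1 mouse left out the log2 fold change ranged from -2.12 to -1.30 for Rbp4 and from -2.40 to -1.43 for Ahsg. Without the Alb-rich member, Fabp5 and Gm10076 passed the test and St3gal6 did not, with a log2 fold change of 1.43 (adjusted p = 0.0633). The other lists overlapped between the groups, at 64.3 to 149 CPM and 61.9 to 159 CPM for B cells, 0 to 77.4 and 7.05 to 64.3 for T and NK cells, and 30.8 to 90.3 and 24.7 to 104 for macrophages. Monocyte and neutrophil genes summed to 40.6 to 87.1 and 41.2 to 335 CPM, megakaryocyte genes to 0 to 103 and 14.7 to 49.5 CPM, and mast cell and basophil genes to 0 to 189 and 17.6 to 330 CPM. Endothelial genes summed to 73.1 to 161 and 86.9 to 182 CPM, and stellate cell genes to 0 to 73.1 and 9.90 to 57.7 CPM. Of the monocyte and neutrophil list, S100a8 and S100a9 were tested, with log2 fold changes of 1.66 and 1.56 (adjusted p = 0.926 for both). Apart from the fits with hepatocyte RNA as a covariate and without the Alb-rich member, the part of this RNA in the other results was not tested.

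Whether the log2 fold change in these progenitors differed from that in other cells was tested as the difference between the 2 values in the same mice. The other liver cells were summed over cell types, so their make-up and their expression cannot be told apart in this difference. Against hemoglobinized erythroblasts, 1 of 3283 genes passed (0.0305%). It was Nop58, a core protein of the box C/D snoRNPs that modify ribosomal RNA, with a difference of -2.19 (SE 0.47, edgeR adjusted p = 0.00913). In members Nop58 averaged 383 CPM in controls and 355 CPM in anemic mice, with a log2 fold change of -0.12 (adjusted p = 0.990). In hemoglobinized erythroblasts it averaged 42.2 and 164 CPM, from 0 to 4 UMIs in each control mouse. The result thus rests on few counts there, and it was lost without TMM factors, by limma voom, and without control mouse 4, 5 or 6 or anemic mouse 6 (adjusted p up to 0.239). In all, 244 genes, Nop58 included, had an unadjusted p under 0.05. Against the other liver cells, 0 of 5342 genes passed (0.0%) by edgeR or limma voom, and 373 had an unadjusted p under 0.05. The same mice gave 46 calls among 3364 genes (1.37%) within hemoglobinized erythroblasts and 1043 among 20991 (4.97%) within the other liver cells. The reason for the different numbers of calls was not tested.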

How the data were processed

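Droplet scRNA-seq was done on livers of 6 control and 6 anemic mice, with 1 library per mouse and no pooling, so the mouse is the replicate. The deposited values are UMI counts per gene and barcode, which the authors made with Cell Ranger (7.0.0 per the file headers, mm10 per the submitters' notes), without normalization. The labels and the methods name different versions of the 10x 3′ kit. Cells were kept at 1000 to 50000 UMIs and a mitochondrial share up to 20%, and no doublet caller was run. RNA that leaks between droplets was not removed. Genes were placed with GENCODE M21 (GRCm38).

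Shares per mouse were compared by exact two-sided Mann-Whitney tests (scipy 1.17.1, Python 3.11.15). UMIs summed per mouse were tested with the quasi-likelihood test of edgeR 4.0.16 (TMM, R 4.3.3) over genes that averaged 5 or more UMIs per mouse, leaving out mitochondrial genes, ribosomal protein genes and the 17 genes of the rule. A gene was called at a BH-adjusted p under 0.05. Differences from other cell classes were tested in 1 model over both classes with the mouse as a block. A planned limit of at least 10 members per mouse would have left 1 control, so it was dropped after the counts were seen and is given as an alternative. For the difference from hemoglobinized erythroblasts, the planned limit of 10 cells in both classes would have left no control and was also dropped. In simulated counts at the members' depth (5280 genes), edgeR recovered 65 of 100 genes changed 4-fold and 10 of 100 changed 2-fold, with 4 false calls. For the difference from other liver cells (5279 genes) it recovered 48 and 5, and for that from hemoglobinized erythroblasts (3236 genes) 4 and 0. The simulated spread between mice was a fixed setting, not estimated from these data, so these counts do not give the power of the tests here.

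Named genes are called genes of at least 20 CPM in the higher group without overlap (gene models without a symbol left out), the called genes of each list or else its 2 genes with the smallest p, a fixed set of stage genes, and called differences between classes. A few of them are left out here. The members, lists, tests and alternatives were chosen with earlier results of these data known. Alternatives used DESeq2 1.42.0 and limma 3.58.1 (voom), other filters and thresholds, covariates, a replicate block and each mouse left out.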

Additional observations from a re-analysis of the deposited data

Results flagged for a closer look

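Of 114 groups of 6 values, 11 had a mouse far from the others by Dixon's test at its 95% limit, which chance gives in about 1 of 20 groups. Among control mice the highest value stood apart for St3gal6 (87.1 CPM), Mif (577 CPM), Exoc6 (231 CPM), Pik3r1 (245 CPM), Blm (168 CPM), Shmt2 (152 CPM), and the hepatocyte genes Rbp4 (541 CPM) and Ahsg (1407 CPM). Among anemic mice the highest value stood apart for Pkm (104 CPM), Mki67 (846 CPM) and the interferon-induced Ifi47 (322 CPM).

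The effect of anemia on Nop58 differed between early erythroid progenitors and hemoglobinized erythroblasts by -2.19 on the log2 scale (edgeR, adjusted p = 0.00913), from -0.12 in progenitors and 2.03 in erythroblasts. It did not pass without TMM factors, by limma voom, or without control mouse 4, 5 or 6 or anemic mouse 6 (adjusted p up to 0.239).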

How the results depend on the processing

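The higher share of early erythroid progenitors kept its direction and passed the exact test under every setting tried, with a difference of 6.86 (globin under 2.5%) to 21.3 (other-lineage genes not applied, chosen after seeing the data) per 10000 cells, 9.86 to 11.8 with 1 mouse left out, and p = 0.03125 with replicate number as a block, the smallest that 6 pairs allow. Same-numbered mice did not deviate together in the members' sums (r = 0.03, -0.04, -0.25, 0.03, -0.10 and -0.02). These sums rest on few cells in control mice, so the check cannot tell whether the numbers pair the mice. The difference in the share with a Kit UMI was 1.06 percentage points (0.31 to 2.5 with 1 mouse left out, 1.06 with the replicate block) and 2.56 under 2.5% globin. That with an Mki67 or Top2a UMI was 2.5 (-0.44 to 5.22 with 1 mouse left out) and turned to -2.45 under 2.5% globin.

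The 3 called genes became 5 by DESeq2, 32 of 15224 without a filter on low counts (26 higher, among them Mt2, Aldoa, Tfrc, Pkm, Gapdh, Higd1a, Ect2 and Cenpf, where the median of all genes moved to 0.24), 0 by limma voom with quality weights, 5 with a replicate block (Mt2, Tcrg-C1 and Rbp4 were gained, and St3gal6 was lost at an adjusted p of 0.105), 1 under 2.5% globin, 1 with members of at most 20000 UMIs and 0 in mice with at least 10 members (1 control, chosen after seeing the data), and 1 to 5 with 1 mouse left out. Fabp5 was called in all but the voom, hepatocyte covariate and 10-member settings. The 1 call of a difference from hemoglobinized erythroblasts became 0 without TMM factors, 0 by limma voom, 3 with Y-linked expression as a covariate, and 0 to 10 with 1 mouse left out. The 0 calls of a difference from other cells became 5 with the Y-linked covariate and 0 to 3 with 1 mouse left out. The replicate block changed no other count by more than 1.5 times.

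Signs turned for log2 fold changes in members that had not passed the test. In mice with at least 10 members the log2 fold change was -0.14 for Mif, -0.10 for Cd48, 0.27 for Mxi1, 0.61 for Pik3r1, 0.16 for Rb1, 0.48 for Bcl2l11, -0.0040 for Wdr43 and 0.25 for Myb. Under 2.5% globin it was -0.048 for Alas2, 0.16 for Kit, 0.14 for Myb and -0.17 for Mki67. Without a filter on low counts it was 0.090 for Kit, 0.084 for Myb and 0.048 for Nop58, by voom 0.28 for Kit and 0.17 for Myb, with hepatocyte RNA as a covariate 0.32 for Kit and 0.014 for Myb, with a replicate block 0.0085 for Myb, with a marker sum of at least 5 0.0048 for Kit and -0.00022 for Mki67, and with the Y-linked covariate -0.029 for Mki67. With 1 mouse left out the range was -0.34 to 0.47 for Kit, -0.36 to 0.28 for Myb, -0.10 to 0.19 for Mki67, -0.22 to 0.035 for Nop58, -0.40 to 0.13 for Smad4 and -0.069 to 0.59 for Tgfbr1. One control mouse left out took the log2 fold change of Alas2 to 0.41, Cd48 to 1.85, Exoc6 to 0.66, Nr3c1 to -0.35, Pklr to -0.34 and Ppp1r15a to 0.24, and 1 anemic mouse that of Exoc6 to 0.19. The cause of these changes was not tested. Members per control mouse (5 to 11) limit the depth. In simulated counts, whose spread between mice was not estimated from these data, 2-fold changes were mostly missed.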

Other observations

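Some genes outside the lists and the rule for named genes did not pass the adjusted test in early erythroid progenitors and were chosen after their values were seen. Jund, a member of the AP-1 transcription factors, was at 566, 739 and 955 CPM in control and 881, 1118 and 1347 CPM in anemic mice (lowest, median, highest), with a log2 fold change of 0.55 (SE 0.13, edgeR adjusted p = 0.200), and the groups overlapped. Its log2 fold change in the other liver cells was -0.14. Bach1, a repressor that heme releases from DNA, was at 0, 17.3 and 32.5 CPM in control and 37.1, 38.7 and 58.3 CPM in anemic mice, without overlap (1.24, SE 0.48, edgeR adjusted p = 0.866). Stmn1, a regulator of microtubules, was lower in all 6 anemic mice than in all 6 controls, at 796, 934 and 1230 CPM in control and 604, 736 and 780 CPM in anemic mice (-0.44, SE 0.12, edgeR adjusted p = 0.480). Tcrg-C1, a constant region of the T cell receptor gamma chain, had 3 UMIs in control and 134 in anemic members, spread over all 6 anemic mice at 23.2 to 152 CPM (3.44, SE 0.88, edgeR adjusted p = 0.480). With so few control UMIs, Tcrg-C1 reached the filter of the test through the anemic mice alone. It passed the adjusted test with a replicate block. The summed T and NK cell list, which holds no gamma chain gene and had no tested gene, overlapped between the groups. The source of the Tcrg-C1 RNA was not tested.

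Some genes differed in level from the hemoglobinized erythroblasts, given as a description without a test and chosen after their values were seen. Hspd1, a mitochondrial chaperonin, averaged 1304 CPM in progenitors and 177 CPM in erythroblasts, a ratio of 7.37. Npm1, an abundant nucleolar protein, averaged 1064 and 198 CPM, and Fbl, a methyltransferase of ribosomal RNA, 214 and 34.4 CPM. Slc25a37, the mitochondrial iron importer, was lower in progenitors, at 164 and 1219 CPM.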
